A study of Mus musculus with 9 samples.

Results

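The comparison described here set the hippocampus of 3xTG mice against that of wild-type (WT) mice, both aged 12 months, on 3 of the 9 two-colour arrays of a study of age-dependent transcript levels. The 3 arrays were taken by their titles, and a probe entered if it was listed on at least 2 of them, whether or not the study's other comparisons listed it. Of 29922 probes, 14488 entered, 3836 of them with a value on all 3 arrays. The study's other 6 arrays compared 3xTG with WT mice at 3 months and WT mice of 12 with WT mice of 3 months. All mice were female, and RNA came from 1 hippocampus of each, per the labels. 3xTG is a transgenic line on a mixed strain background that carries several disease alleles, among them human APP with the Swedish mutation and mutant human tau, both driven by a Thy1 regulatory cassette active in neurons. The WT mice were 129SV with C57BL6, and no label says that they were littermates of the 3xTG mice.

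Only 4 mice stand behind the comparison. Arrays 1 and 2 carried the same 3xTG mouse, in Cy3, against WT mice 24 and 25. Array 3 carried the second 3xTG mouse, in Cy5, against WT mouse 24. Arrays 1 and 3 therefore shared a WT mouse, and arrays 2 and 3 shared no mouse. Dye and 3xTG mouse changed together between arrays 1 and 2 and array 3, so their effects cannot be told apart. The extraction text of the 3xTG channels speaks of WT tissue and that of the reference channels of an age of 3 months, while titles, source names, genotype and age all say 3xTG and WT at 12 months; the latter were followed.

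The hippocampus holds the pyramidal and granule cell layers that serve memory, and it is among the regions where 3xTG mice form amyloid plaques and tangles of phosphorylated tau as they age. Amyloid peptide is cut from the App protein by secretases, and tau, the product of Mapt, binds microtubules unless kinases phosphorylate it. Plaques in such models draw microglia and astrocytes, and loss of synapses, mitochondrial function and protein clearance has been described around them.

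Each deposited value is a ratio, read here as log2 of 3xTG over WT from the titles. Arrays of opposite dye orientation correlated positively, but neither the log base nor the direction is stated in the sources used here. The arrays listed 14795, 14464 and 14832 probes, and no listed value lay between -0.5 and 0.5. The medians of the listed values were -0.87, -0.87 and -1.71. Values below -0.5 made up 29.3, 28.6 and 39.0% of all probes, and values above 0.5 made up 20.1, 19.7 and 10.5%. If every unlisted probe had a ratio near 0, the median over all probes would thus lie between -0.5 and 0.5 on each array. Log2 ratios below are relative to each array's median of listed values unless stated otherwise, and this choice sets where 0 lies.

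**Figure D1:**
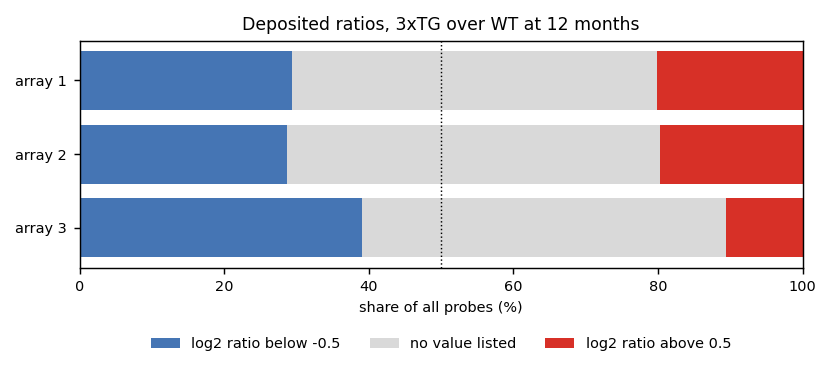
Share of the 29922 probes on each of the 3 arrays with a deposited log2 ratio of 3xTG over WT below -0.5 (blue), without a listed value (grey) and above 0.5 (red); the dotted line marks the middle probe. On each array the middle probe falls among those without a value, and array 3 has more values below -0.5 (39.0%) than arrays 1 (29.3%) and 2 (28.6%).

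The arrays shared a moderate part of their pattern. Over 7383 probes listed on arrays 1 and 2, which shared the 3xTG mouse and the dye orientation, Pearson's r was 0.308, and 66.8% of the probes had the same sign. For arrays 1 and 3, which shared the WT mouse, r was 0.279 with 63.4% of signs equal. For arrays 2 and 3, which shared neither mouse nor dye orientation, r was 0.245 with 61.8% equal. These correlations run across probes, which are not independent replicates. Of the 3836 probes on all 3 arrays, 1141 were above the array median on all 3 and 777 below it on all 3. The deposited signs, without centring, gave 823 above and 1455 below, so which direction prevailed depended on the centring. The median SD of a probe across the 3 arrays was 1.27 on the log2 scale.

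Probes designed for the same gene agreed less well. Among 1250 pairs of tested probes with the same gene symbol, r between their fitted log2 ratios was 0.119 and 54.8% of the pairs had the same sign. Where both probes of a pair had an unadjusted limma p under 0.05, 36 of 44 pairs (81.8%) had the same sign. At that level most tested probes lay above 0 (1522, against 375 below), so unrelated probes would also often share a sign. How far the pairs exceeded that was not tested. Gene values given below for lists are means over the probes of a gene, and another probe's value is given beside a named probe where one was tested.

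No probe passed the test. In limma, with a covariance that accounts for shared mice, 0 of 14488 probes had a Benjamini-Hochberg adjusted p under 0.05, and the smallest adjusted p was 0.355. At an unadjusted p under 0.05 there were 1522 probes above 0 (10.5%) and 375 below 0 (2.59%). Averaged by gene, 0 of 9416 genes passed (smallest limma adjusted p = 0.313). At an unadjusted p under 0.05, 1120 genes lay above 0 (11.9%) and 194 below (2.06%). Without centring the split turned to 238 genes above and 1073 below, and relative to abundant transcripts to 69 and 1895. Both other scalings lower every value on arrays 1, 2 and 3. Without centring the shift is 0.87, 0.87 and 1.71, and relative to abundant transcripts 2.00, 2.01 and 1.16, the medians of their probes. The 194 genes below 0 could therefore not change sign. All 1120 genes above 0, with a median of 2.85, stayed above 0. Of them, 238 and 69 kept an unadjusted limma p under 0.05 without centring and relative to abundant transcripts. On simulated data of this design large changes also went uncalled, so the absence of calls does not show that transcripts were alike. What follows therefore describes measured values, and no single transcript is called changed.

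Brain-abundant transcripts and families not known for expression in hippocampus took opposite places on every array. The abundant set joined respiratory chain, glycolysis, ribosome and proteasome genes. Its array medians were 2.00, 1.98 and 1.21, and 94 of its 109 tested genes lay above 0. For olfactory, vomeronasal and taste receptors together with keratin-associated proteins, the medians were -0.54, -0.53 and -0.34, and 164 of 433 tested genes lay above 0. In the deposited ratios the abundant set had medians of 1.14, 1.11 and -0.50 and the sensory and epithelial families -1.41, -1.40 and -2.05. The distance between the sets was 2.54, 2.51 and 1.55, which no shift of a whole array alters. The part that transcript abundance plays in any list below was not tested. In whole tissue, fewer cells of a type and less RNA per cell cannot be told apart.

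Among the transgene-related genes, App, whose product yields amyloid peptide, was measured by a pair of probes. One gave 2.41, 1.84 and 2.36 on arrays 1, 2 and 3, a fitted log2 ratio of 2.20 ± 0.65 (SE). The other gave 1.63 and 2.17 on arrays 1 and 2, fitted at 1.90 ± 0.88 (SE). Both App probes thus stood above the array median wherever listed, by similar amounts. Without centring they stood at 1.04 and 1.03, and relative to abundant transcripts at 0.49 and -0.10, so the second probe's side depended on the scaling. Mapt, the gene of tau, gave 2.69, 2.99 and 2.38 on arrays 1, 2 and 3, fitted at 2.69 ± 0.64 (SE), and 1.53 without centring. For Thy1, a neuronal surface protein whose regulatory sequence drives the APP and tau transgenes, the arrays gave 1.85, 2.10 and 2.57, fitted at 2.19 ± 0.65 (SE), and 1.02 without centring. The limma adjusted p was 0.355 for Mapt, Thy1 and the App probe listed on all 3 arrays, and 0.428 for the other App probe. The sequences of the probes were not used here, and whether they detect the human transcripts was not tested.

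Among probes with one sign on all 3 arrays, those of smallest p above 0 included subunits of the main fast transmitter receptors. Gabrb2, a beta subunit of the GABA-A receptor, gave 4.32, 4.06 and 4.70 on arrays 1, 2 and 3, a fitted log2 ratio of 4.36 ± 0.65 (SE). Its arrays lay within 1 log2 unit of each other. Other Gabrb2 probes did not all share that place: one was at 1.77 and 2.32 on arrays 1 and 3, another at -1.61 and -1.26. Gria2, the AMPA receptor subunit that keeps the channel closed to calcium, gave 3.91, 3.71 and 4.56 on arrays 1, 2 and 3, fitted at 4.07 ± 0.66 (SE). Several signalling and transcription genes belonged to the group. Mef2c, a transcription factor of neuronal development and activity, had values of 5.22, 4.54 and 3.80 on the 3 arrays. Arhgap35, a GTPase-activating protein, had 3.70, 4.26 and 4.29, and Atxn1, whose expanded form causes spinocerebellar ataxia, 5.05, 3.57 and 5.61. The rule took the smallest p and one sign on all 3 arrays, so high values on every array follow from the choice. Without centring Mef2c, Arhgap35 and Atxn1 stood at 3.33, 2.94 and 3.57.

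Other probes of this group belonged to basic cell functions. Wdr26, part of a ubiquitin ligase complex, gave 3.67, 4.65 and 4.76 on the 3 arrays. Rcn2, a calcium-binding protein of the endoplasmic reticulum, gave 3.66, 5.09 and 4.59. Slc25a3, the phosphate carrier of the mitochondrial inner membrane, gave 3.31, 4.72 and 4.31. Hprt, the purine salvage enzyme often used as a reference transcript, had ratios in the same range, at 3.90, 4.93 and 3.56. G3bp2, an RNA-binding protein of stress granules, was fitted at 3.97 ± 0.65 (SE), and its other probe gave 3.07 and 7.77 on arrays 1 and 3. Enc1, an actin-associated protein of neurons, was fitted at 3.81 ± 0.64 (SE), and Ppp1cb, a catalytic subunit of protein phosphatase 1, at 3.80 ± 0.63 (SE). Arfgef1, an exchange factor of Golgi traffic, stood at 3.85 ± 0.64 (SE), Zfand6, a zinc finger protein, at 4.04 ± 0.67 (SE), and Ociad1, a mitochondrial membrane protein, at 4.00 ± 0.65 (SE). All 15 probes above 0 in this group had a limma adjusted p of 0.355, and without centring their fitted values ran from 2.64 to 3.57.

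Below 0, the probe of smallest p belonged to Sbf1, a myotubularin-related regulator of membrane traffic. Its arrays gave -4.75, -4.97 and -4.02, a fitted log2 ratio of -4.57 ± 0.66 (SE). A second Sbf1 probe was closer to the median, at -0.74 and -0.47 on arrays 1 and 2, and a further one was listed on array 1 alone, at -4.50. Ttr encodes transthyretin, the thyroxine carrier made in quantity by choroid plexus and known to bind amyloid peptide. Its arrays gave -3.57, -3.49 and -3.73, after centring a range narrower than that of most probes, and the fit -3.60 ± 0.63 (SE). In the deposited ratios the arrays gave -4.44, -4.37 and -5.44. Of the other choroid plexus and ependyma markers, 7 were tested besides Ttr; Folr1 gave 4.73 and -0.25 on arrays 1 and 2 and Foxj1 -2.26 and 0.04 on arrays 1 and 2. In that list 6 of 8 tested genes lay above 0, with a median of 0.28 (2 of 8 and -0.81 without centring), so Ttr stood apart from most of its list. Whether the amount of choroid plexus in the dissections differed was not tested. Cd3g, a chain of the T cell receptor complex, gave -3.94, -3.95 and -3.44, fitted at -3.77 ± 0.64 (SE).

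The rest of the probes of smallest p below 0 included 4 from genes known from other tissues. Slc24a5, an ion exchanger of pigment cells, gave -5.004, -8.18 and -5.01 on the 3 arrays. Rpgrip1, a ciliary protein of photoreceptors, gave -4.02, -8.36 and -3.80, and Spam1, a sperm hyaluronidase, -4.42, -2.18 and -4.26. Nobox, an oocyte transcription factor, gave -2.92, -1.81 and -4.15. One sign on all 3 arrays was required of these probes, so their common side comes from the choice. Array 2 stood apart for Slc24a5 and Rpgrip1. Ubd, a ubiquitin-like protein induced by interferon gamma and tumour necrosis factor, was fitted at -2.56 ± 0.65 (SE), and Cracr2b, a calcium-binding relative of a store-operated channel regulator, at -3.18 ± 0.66 (SE), with its other tested probe at -4.45 and -0.27 on arrays 1 and 3. Ddx27, an RNA helicase of ribosome assembly, was at -3.04 ± 0.71 (SE), Mid1, a microtubule-bound ubiquitin ligase, at -3.42 ± 0.86 (SE), and Plpbp, which binds pyridoxal phosphate, at -3.97 ± 0.88 (SE). Tspan15, which steers the protease Adam10, stood at -2.83 ± 0.68 (SE), but its other probe gave 4.53 and 2.16 on arrays 1 and 2. The unnamed transcripts 4930480E11Rik and 2210418O10Rik were fitted at -4.54 and -4.84. The limma adjusted p was 0.355 for each of the 15 probes below 0.

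**Figure D2:**
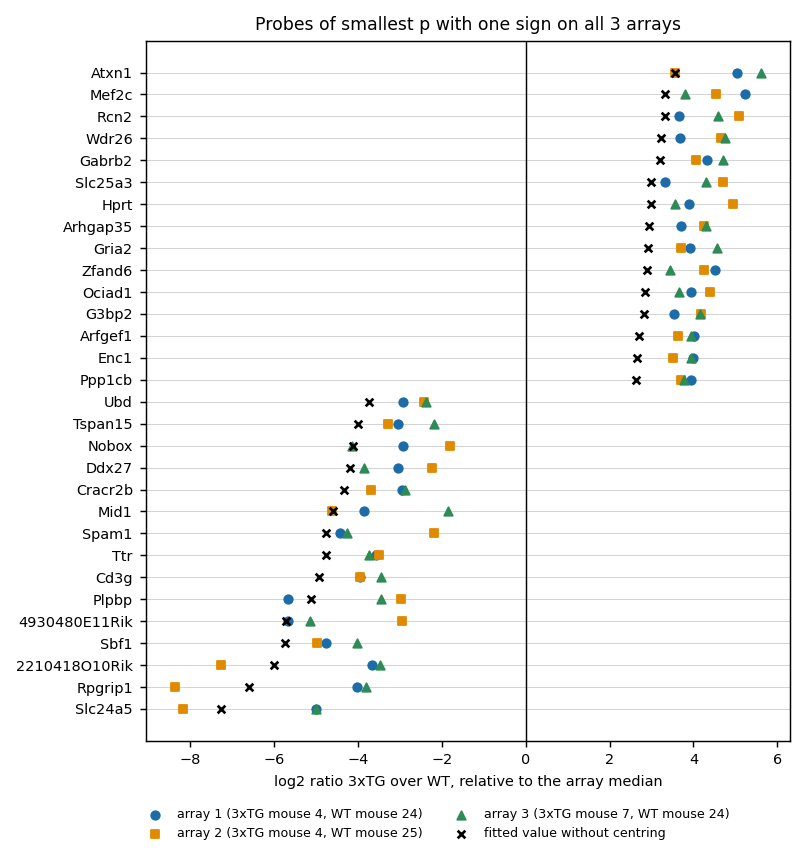
Log2 ratios of 3xTG over WT, relative to the array median (x axis), for the 15 probes of smallest p in each direction that had one sign on all 3 arrays; circles, squares and triangles are the 3 arrays, and crosses are fitted values without centring. The probes above 0 sit between 3.31 and 5.61, and Slc24a5 and Rpgrip1 on array 2 lie below -8.

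Gabrb2, Wdr26, Rcn2, Arhgap35, Atxn1, Gria2, Ociad1 and Slc25a3 above 0, and 11 of the 15 probes below 0, were listed on fewer than 2 of 3 arrays in at least 1 of the other comparisons of the study. Most tested probes were of that kind. The fit of all 9 arrays, which needs at least 2 of 3 arrays in each comparison, covered 3644 of the 14488 probes. Further probes listed sparsely elsewhere had the next smallest p. Ly6h, a neuronal relative of receptor-modulating surface proteins, gave 4.23, 4.27 and 3.28 on the 3 arrays. A second Ly6h probe gave 4.05, 3.21 and 3.15, while another, listed on arrays 2 and 3, gave -0.11 and -2.93. Ppp2r1a, the scaffold subunit of protein phosphatase 2A, gave 3.54, 3.55 and 3.46, values within 0.1 log2 units of each other after centring. In the deposited ratios they were 2.67, 2.68 and 1.75, since centring moved array 3 by more than arrays 1 and 2. Such closeness of arrays therefore depends on the centring. Ndufa6, a subunit of respiratory complex I, gave 4.37, 3.61 and 3.30. Gstm5, a glutathione transferase, was fitted at 3.55 ± 0.63 (SE), Dhx9, an RNA helicase, at 4.07 ± 0.73 (SE), and Ppp1cc, a phosphatase catalytic subunit, at 3.82 ± 0.66 (SE), with its other probe at -0.33 and -0.12 on arrays 1 and 2. Lims1, an adaptor of integrin adhesions, was at 3.97 ± 0.72 (SE), with its other probe at 1.78 and -4.28 on arrays 1 and 3. Below 0 stood Neil1, a DNA glycosylase of base excision repair, at -2.85 ± 0.80 (SE), and Barx2, a homeobox factor, at -3.40 ± 0.96 (SE). Birc6, a large inhibitor of apoptosis, stood at -2.70 ± 0.74 (SE), but its other tested probe gave -0.02 and 0.25 on arrays 1 and 3. Mettl27, a methyltransferase-like protein, stood at -2.44 ± 0.66 (SE), but its other probe gave 4.74 and -1.40 on arrays 1 and 3.

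Gene lists were read against all 9416 genes tested, of which 57.1% lay above 0 with a median of 0.31. The median was -0.86 without centring, when 34.1% lay above 0, and -1.40 relative to abundant transcripts. Genes on one side of 0 on every array that listed them made up 32.7% above and 23.2% below. An unadjusted p under 0.05 was found for 11.9% of genes above 0 and 2.06% below, which is the background for the counts of lists. Of 81 lists, 33 had a median above that of all genes and 19 below it in every alternative run. Lists were not tested as sets, and no gene of any list passed after adjustment.

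**Figure D3:**
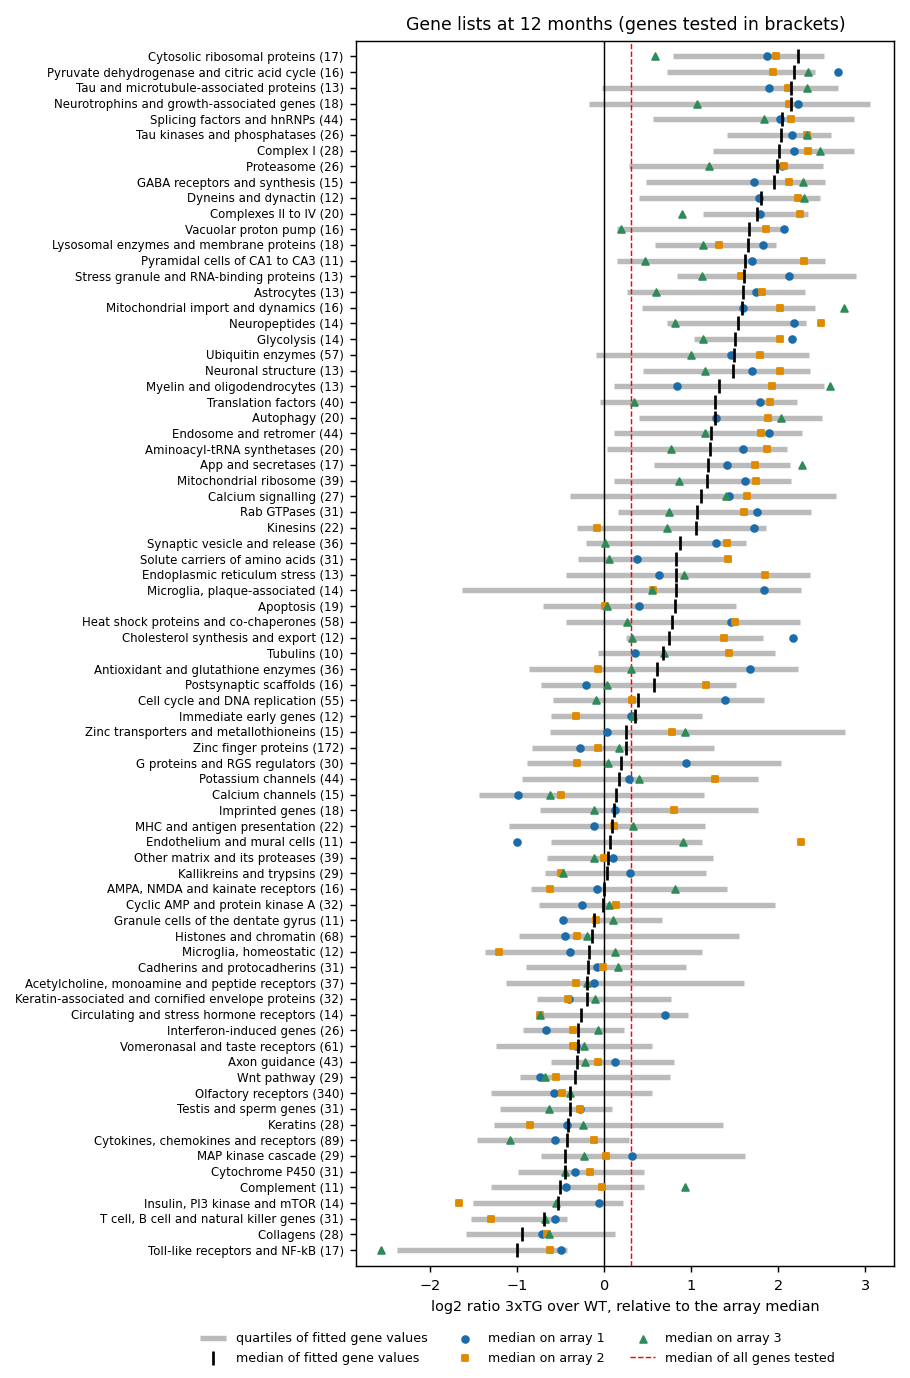
Median log2 ratio of 3xTG over WT relative to the array median (x axis) for each gene list with at least 10 tested genes: black bars are medians of fitted gene values, grey lines their quartiles, coloured symbols the medians on single arrays, and the dashed line the median of all genes. Complex I, ribosomal protein, splicing, proteasome and tau kinase lists sit near 2, and Toll-like receptor, collagen and lymphocyte lists sit below -0.5.

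Genes of mitochondrial energy supply lay above 0 in most cases. Complex I, the entry point of electrons from NADH into the respiratory chain, had 26 of 28 tested genes above 0 (92.9%) and a median of 2.01, and an unadjusted p under 0.05 was reached by 11 on the positive side and 0 on the negative, against 11.9% and 2.06% of all genes. The list's medians on the single arrays were 2.18, 2.35 and 2.48. Ndufs4, an accessory subunit, gave 2.70, 3.70 and 3.63 on arrays 1, 2 and 3. Ndufa4, later assigned to cytochrome oxidase, gave 3.92, 2.49 and 3.23, and Ndufb3 2.76, 3.70 and 2.48, each fitted near 3. All 3 subunits were above the median on every array. Complexes II to IV had 17 of 20 genes above 0, a median ratio of 1.75 and 7 genes at an unadjusted p under 0.05. Their array medians were 1.79, 2.25 and 0.89, so array 3 was lower, by less than the shift of 1.71 that centring gave it. There Uqcrh, the hinge protein of complex III, gave 3.74, 3.03 and 3.14 on arrays 1, 2 and 3, and Cox5a of cytochrome oxidase 5.24 and 3.64 on arrays 1 and 2. Without centring the medians of both lists stayed above 0, at 1.02 and 0.74. Relative to abundant transcripts, to which these genes belong, they were 0.15 and -0.03.

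The supply of the respiratory chain showed the same side. Pyruvate dehydrogenase and citric acid cycle genes had 12 of 16 above 0 and a median of 2.18. Pdha1, the catalytic subunit of pyruvate dehydrogenase, gave 3.92, 2.78 and 3.21 on arrays 1, 2 and 3, and Idh3b, of isocitrate dehydrogenase, 2.64, 2.44 and 2.45. Glycolysis had 13 of 14 genes above 0, a median ratio of 1.50 and 3 genes at an unadjusted p under 0.05. Its array medians were 2.15, 2.02 and 1.14, with array 3 lower. Pkm, pyruvate kinase, gave 2.51, 2.35 and 3.34 on arrays 1, 2 and 3, and Pgam1, phosphoglycerate mutase, 2.33, 2.10 and 2.28. Both enzymes had one sign throughout. The ATP synthase list had all 4 tested genes above 0, from 1.08 for Atp5b to 2.06 for Atp5a1, but Atp5b stood at -0.21 without centring. The list's array medians were 2.03, 1.85 and 0.80, the last from 2 genes. Mitochondrial ribosomal proteins lay lower than the respiratory chain, with a median of 1.18 over 39 genes, and -0.09 without centring. Of mitochondrial import and dynamics genes, 13 of 16 lay above 0, among them the outer membrane channels Vdac2 at 3.19 ± 0.78 (SE) and Vdac3 at 2.51 ± 0.63 (SE).

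Protein synthesis and RNA handling took similar places. Cytosolic ribosomal proteins had 14 of 17 genes above 0 and a median ratio of 2.22. The array medians were 1.87, 1.97 and 0.58, so array 3 was lower. Rpl23 gave 2.18, 3.71 and 2.34 on arrays 1, 2 and 3, Rpl27a 2.36, 2.13 and 2.29 and Rps3 2.07, 1.97 and 2.85. Ribosomal protein genes have many processed copies in the genome, and cross-hybridisation was not tested. Translation factors had 29 of 40 genes above 0 with a median ratio of 1.28, or 0.17 without centring. Their array medians were 1.80, 1.91 and 0.34. Eif3e and Eif3h, subunits of initiation factor 3, were at 3.57 ± 0.83 (SE) and 2.52 ± 0.65 (SE). Aminoacyl-tRNA synthetases, which load amino acids onto tRNA, had 16 of 20 above 0, a median of 1.21, and -0.01 without centring. Of 44 splicing factors and hnRNPs, 16 had positive ratios with an unadjusted p under 0.05 and 0 negative ones, and the list had a median of 2.05. Hnrnpul2 gave 3.66, 3.60 and 3.61 on arrays 1, 2 and 3, a range of under 0.1 log2 units after centring. Srsf1, a founding SR splicing factor, gave 4.47 and 5.89 on arrays 2 and 3, and Hnrnph1 2.72, 4.16 and 2.72. Among stress granule and RNA-binding proteins, with 11 of 13 above 0, Caprin1, the partner of the G3bp proteins, was at 3.21 ± 0.69 (SE).

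Genes of protein degradation were mostly above 0. The proteasome, which degrades ubiquitin-tagged proteins, had 20 of 26 genes above 0, a median ratio of 1.98 and 8 genes at an unadjusted p under 0.05. The list's array medians were 2.05, 2.07 and 1.21. No gene of it lay below 0 on every array that listed it. Psmb1, a subunit of the catalytic ring, gave 3.27, 6.64 and 5.19 on arrays 1, 2 and 3. Psma1, of the outer ring, gave 5.62 and 7.42 on arrays 1 and 2, and Psmd11, of the regulatory particle, 6.21 and 4.15 on arrays 1 and 3. These 3 subunits stood above the list's median, and Psma7 stood at 2.62 ± 0.64 (SE). Ubiquitin enzymes had 42 of 57 genes above 0 and a median ratio of 1.50. Usp14, a deubiquitinase of the proteasome, gave 2.73, 2.92 and 2.61, and Nedd4l, a membrane protein ligase, 1.92, 2.96 and 3.30. Heat shock proteins and co-chaperones had 35 of 58 genes above 0, 60.3% against 57.1% of all genes. Their median was 0.78, and -0.25 without centring. Cct2, of the chaperonin that folds actin and tubulin, was at 4.45 ± 0.90 (SE), and Hspa9, the mitochondrial Hsp70, at 3.32 ± 0.73 (SE). Endoplasmic reticulum stress genes were mixed, with 8 of 13 above 0. There Canx, a folding chaperone, stood at 2.92 ± 0.66 (SE) and Xbp1, a factor of the unfolded protein response, at 2.42 ± 0.65 (SE), while Sel1l, of the degradation machinery, stood at -2.61 ± 0.93 (SE).

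Lysosomes digest proteins delivered by endocytosis and autophagy, at a pH set by the vacuolar proton pump. Lysosomal enzymes and membrane proteins had 15 of 18 genes above 0 and a median ratio of 1.65, with 2 at an unadjusted p under 0.05, a share near the 11.9% of all genes. Tmem106b, a lysosomal membrane protein tied to frontotemporal dementia, gave 2.50, 4.01 and 2.99 on arrays 1, 2 and 3, and Lamp1 2.38, 2.34 and 2.68. The proton pump had 13 of 16 genes above 0 and a median ratio of 1.66. Its array medians were 2.07, 1.86 and 0.19, so array 3 lay near the array median. Atp6ap2, an accessory subunit, gave 3.67, 3.67 and 3.26 on arrays 1, 2 and 3, and Atp6v1a, the catalytic subunit, 2.35, 3.27 and 3.53. Autophagy genes had 17 of 20 above 0 and a median of 1.27, or 0.04 without centring. The cargo receptors Sqstm1 and Nbr1 gave 3.07, 4.15 and 2.66 and 2.44, 2.25 and 2.73. Atg4c, a protease that processes the Atg8 proteins, gave -4.55, -4.65 and -2.32, while its relative Atg4b gave 3.15 and 3.61 on arrays 2 and 3. Endosome and retromer genes had 35 of 44 above 0 and a median of 1.23, or -0.03 without centring, with Snx3, a retromer partner, at 3.16 ± 0.65 (SE) and Vps33a, of the tethering complexes, at 3.11 ± 0.68 (SE).

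Several promoters of this group hold the 8-base E-box motif TCACGTGA, which reads the same on both strands and is known from lysosomal gene promoters. It was searched in RefSeq promoter windows of GRCm38.p6, from 250 bases before to 50 bases after each gene's start, a search chosen after the values were seen; Ctsa and Cln3 are named for holding the motif. It lay in 5 of 13 tested lysosomal genes with a window (38.5%), 3 of 11 proton pump genes (27.3%) and 1 of 19 autophagy genes (5.26%), against 136 of 7554 tested genes (1.80%) and 304 of 27025 windows (1.12%). The stretches below, 30 bases 5′ to 3′ along the gene's strand with the motif in capitals, come from genes whose ratios differ. The 8 bases are the same in each because the search required it.
Ctsd: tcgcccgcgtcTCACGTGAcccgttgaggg
Atp6v1a: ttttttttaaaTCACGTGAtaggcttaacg
Atp6v0e: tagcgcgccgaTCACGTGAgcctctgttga
Ctsa: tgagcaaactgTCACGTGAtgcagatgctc
Cln3: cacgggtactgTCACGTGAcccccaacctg
They lie at chr7:142387908-142387937 (Ctsd, minus strand), chr16:44139373-44139402 (Atp6v1a, minus), chr17:26676387-26676416 (Atp6v0e, plus), chr2:164833749-164833778 (Ctsa, plus) and chr7:126583340-126583369 (Cln3, minus). Ctsd, the aspartic protease cathepsin D, was fitted at 3.08 ± 1.20 (SE) from arrays 1 and 3. Atp6v1a stood at 3.08 ± 0.68 (SE) and Atp6v0e, a subunit of the membrane sector, at 2.29 ± 0.82 (SE). Ctsa, protective protein cathepsin A, stood at -2.20 ± 0.86 (SE) from arrays 2 and 3. Cln3, a membrane protein of Batten disease, stood at 0.12 ± 1.19 (SE) from arrays 1 and 3, with opposite signs on them. In the whole lysosomal, proton pump and autophagy lists 15 of 18, 13 of 16 and 17 of 20 genes lay above 0, and without centring 11, 9 and 10. Of the 9 genes of the 3 lists with the motif, 8 lay above 0 and 1, Ctsa, below, and without centring 5 lay above. The others were Gla, a galactosidase, at 1.64 ± 1.36 (SE), Mcoln1, a lysosomal ion channel, at 0.58 ± 0.87 (SE), the pump subunit Atp6v0d1 at 1.26 ± 0.84 (SE) and Atg3, of autophagosome formation, at 1.47 ± 0.88 (SE). A match describes these letters, not binding.

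Lists tied to the amyloid and tau pathways had positive medians. App and secretase genes had 14 of 17 above 0, a median of 1.19 and 5 genes at an unadjusted p under 0.05 above 0, with 1 below. Without centring that median was 0.01. Apba2, an adaptor that binds the App tail, gave 2.42, 2.63 and 3.06 on arrays 1, 2 and 3. Itm2b, an inhibitor of App processing, gave 1.93, 2.38 and 2.28, and Sorl1, which sorts App away from endosomes, 5.30 and 2.34 on arrays 1 and 3. These 3 partners of App stood above the array median wherever listed. Ncstn, nicastrin of the gamma-secretase complex, lay on the other side, at -1.88 and -3.76 on arrays 2 and 3. Carriers and clearance factors of amyloid had 8 of 9 genes above 0 and a median ratio of 1.98. Apoe, the lipid carrier of the brain, gave 4.32, 2.37 and 2.48 on arrays 1, 2 and 3, and Cst3, cystatin C, 2.82, 1.59 and 2.66. Picalm, a clathrin adaptor, gave 2.45, 7.18 and 3.82, and Bin1, a membrane-bending protein, 3.58, 2.57 and 1.62.

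Among tau kinases and phosphatases, 24 of 26 genes lay above 0 (92.3%), against 92.9% for complex I, with a median of 2.03. Of them 12 had an unadjusted p under 0.05 on the positive side and 0 on the negative, and 20 stayed above 0 without centring. The members of smallest p included phosphatase subunits, which remove phosphate, as well as kinases. Ppp2cb, a catalytic subunit of phosphatase 2A, gave 4.27 and 4.70 on arrays 1 and 3, beside Ppp2r1a. Ppp1cb averaged over its probes gave 2.93, 3.71 and 3.77 on arrays 1, 2 and 3. Csnk1g2, a casein kinase 1, gave 3.96, 3.22 and 3.22. Microtubule-associated proteins had 9 of 13 genes above 0 and a median ratio of 2.15. Besides Mapt, Tppp, which stabilises microtubules in oligodendrocytes, gave 3.95, 3.22 and 3.61, Stmn2, a neuronal regulator of growth cones, 2.42, 2.37 and 2.30, and Map4 2.01, 4.03 and 2.37.

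Genes of axonal transport followed in part. Dyneins and dynactin, which carry cargo towards the cell body, had 10 of 12 genes above 0 and a median ratio of 1.80. Dync1h1, the heavy chain, gave 2.53, 2.48 and 2.43 on arrays 1, 2 and 3. Kinesins had 16 of 22 above 0 with a median of 1.05, and -0.24 without centring. Kif21a gave 3.48, 3.65 and 3.97 on arrays 1, 2 and 3, Klc1, a kinesin light chain, 2.56, 3.67 and 3.37, and Kif5c, a neuronal heavy chain, 1.73, 1.99 and 2.79. All of these motor subunits stood above the median on all arrays. Tubulins were closer to the background, with 7 of 10 above 0, a median of 0.67 (-0.56 without centring) and none at an unadjusted p under 0.05. Rab GTPases, switches of vesicle traffic, had 25 of 31 above 0 and a median of 1.07, but 14 and -0.23 without centring. Rab10 gave 3.59, 3.56 and 4.44 on arrays 1, 2 and 3, and Rab12 5.37 and 3.94 on arrays 2 and 3.

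Synaptic lists differed among themselves. GABA receptors and synthesis had 12 of 15 genes above 0, a median ratio of 1.95 and 7 genes at an unadjusted p under 0.05 above 0. Gabrb1 gave 2.28, 2.94 and 3.04 on arrays 1, 2 and 3, Gabra5, an alpha subunit rich in hippocampus, 2.24, 2.21 and 4.23, and Gabra2 2.95 and 3.77 on arrays 1 and 3. Slc6a11, a GABA transporter of astrocytes, gave 2.68, 2.12 and 2.88. These inhibitory receptor subunits and the transporter were above the median wherever listed. The AMPA, NMDA and kainate receptor list was spread about 0, with 8 of 16 above 0 and a median of -0.01. In it Gria1 gave 2.31, 2.29 and 3.60 on arrays 1, 2 and 3, beside Gria2, while Cacng8, an auxiliary subunit of AMPA receptors, gave -2.59 and -2.46 on arrays 1 and 2. Postsynaptic scaffolds had 9 of 16 above 0 and a median of 0.58, which was -0.72 without centring. Homer2, which links glutamate receptors to calcium stores, gave 3.11, 2.77 and 2.37. The difference between the inhibitory and excitatory lists was not tested.

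On the presynaptic side, vesicle and release genes had 24 of 36 genes above 0 and a median ratio of 0.87, 1.28, 1.41 and 0.01 on the single arrays, or -0.10 without centring. Cltc, the clathrin heavy chain, gave 3.30, 3.19 and 3.92 on arrays 1, 2 and 3, and Rph3a, a Rab effector of vesicles, 2.74, 2.50 and 2.79, while Syt15, a synaptotagmin, gave -4.04 and -3.17 on arrays 1 and 3. Neuropeptides and their processing enzymes had 12 of 14 above 0 and a median of 1.54. Scg3, a granule protein, gave 4.59 and 5.56 on arrays 1 and 3, and Cpe, the carboxypeptidase of peptide maturation, 2.58, 3.08 and 4.40. Receptors of acetylcholine, monoamines and peptides had 18 of 37 above 0 and a median of -0.20, below that of all genes. Potassium channels had 24 of 44 above 0 and a median of 0.17, or -0.98 without centring. Kcnma1, the calcium-activated channel of large conductance, stood at 3.25 ± 0.65 (SE) and Kcnab1, an auxiliary subunit, at 4.61 ± 1.08 (SE). Calcium channels had 8 of 15 above 0, and sodium channels 2 of 4.

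Calcium-dependent signalling and growth-associated genes were mostly above 0 relative to the array medians. Calcium signalling had 19 of 27 genes above 0, a median ratio of 1.11 and 10 genes at an unadjusted p under 0.05 above 0. Without centring 13 of them lay above 0, with a median of -0.05. Atp2b1, the calcium pump of the plasma membrane, gave 3.28, 2.95 and 3.15 on arrays 1, 2 and 3. Camk2n1, an inhibitor of calcium/calmodulin kinase II, gave 2.79, 3.69 and 3.19, and Calm3, a calmodulin gene, 3.00, 2.40 and 3.42. Each had values within about 1 log2 unit after centring. Neurotrophins and growth-associated genes had 12 of 18 above 0, a median of 2.14 and 9 at an unadjusted p under 0.05. Plppr4, a plasticity-related protein of excitatory synapses, gave 3.60, 4.03 and 3.08, and Nrn1, neuritin, 3.40, 2.79 and 2.69. Immediate early genes, which respond to activity within minutes, had 7 of 12 above 0 and a median of 0.36, or -0.93 without centring. Btg2 gave 2.59 and 3.10 on arrays 1 and 3 and Ier2 -1.72, -1.50 and -1.31.

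Other signalling lists had smaller shares of genes above 0 than the 57.1% of all genes. Insulin, PI3 kinase and mTOR genes had 5 of 14 above 0 and a median of -0.53, or -1.82 without centring. Pik3r1, the regulatory subunit of PI3 kinase, gave -5.38 and -4.42 on arrays 2 and 3, whereas Igf2r, a receptor of growth factor and lysosomal enzymes, gave 4.67 and 2.24 on arrays 1 and 2. Wnt pathway genes had 12 of 29 above 0 and a median of -0.34. Wnt7b, a ligand, gave -1.65, -2.23 and -1.57, and Fzd3, a receptor, 3.01 and 2.78 on arrays 1 and 2. The MAP kinase cascade had a median of -0.46, although Mapk8 and Mapk9, the Jun kinases, were at 2.61 ± 0.67 (SE) and 2.15 ± 0.63 (SE). Cyclic AMP and protein kinase A genes had 16 of 32 above 0, and their leading genes, Crem at 5.59 ± 0.92 (SE) and Pde1a at 5.02 ± 0.92 (SE), were listed on 2 arrays each. G protein and RGS genes had 15 of 30 above 0, with Rgs4, a brake on Gq and Gi signalling, at 3.83 ± 0.80 (SE).

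Several immune lists lay mostly below 0. Toll-like receptors and NF-kB had 3 of 17 above 0 and a median of -1.01, with 3 genes at an unadjusted p under 0.05 below 0. Rel, an NF-kB subunit, gave -4.80 and -3.04 on arrays 1 and 2, Tlr9 -3.09 and -2.40 on arrays 1 and 3 and Tlr6 -0.67, -4.27 and -3.03. Every value of these 3 genes was below the array median. The list median was lower on array 3, at -2.57, against -0.50 and -0.62. T cell, B cell and natural killer genes had 6 of 31 above 0 and a median of -0.69. Lat, an adaptor of T cell receptor signalling, gave -1.80, -3.27 and -2.07, beside Cd3g. Cytokines, chemokines and receptors had 33 of 89 above 0 and a median of -0.43. Il1rn, the interleukin 1 receptor antagonist, gave -5.52 and -2.89 on arrays 1 and 2. On the positive side Tnfrsf4, a co-stimulatory receptor of T cells, gave 2.43 and 3.12 on arrays 2 and 3, and Tnfsf15, a ligand of the tumour necrosis factor family, 3.58 and 2.23 on arrays 2 and 3, so 2 genes above and 2 below 0 had an unadjusted p under 0.05. Such genes are little expressed in healthy hippocampus. The cytokine median lay close to the -0.39 of the olfactory receptors. Interferon-induced genes had a median of -0.30 over 26 genes, with Irf1, a transcription factor, at 3.86 ± 0.91 (SE) and Ifi44 at -1.95 ± 0.82 (SE). MHC and antigen presentation genes had 12 of 22 above 0 and a median of 0.09, or -0.87 without centring. H2-D1, a class I heavy chain, gave -2.48 and -2.47 on arrays 2 and 3, while B2m, the light chain, gave 2.20 and 2.17 on arrays 1 and 2. The complement list had a median of -0.51, but C1qa and C1qc, chains of the initiating C1q, gave 2.89, 1.66 and 0.92 and 6.33, 1.50 and 0.95.

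Glial and neuronal markers were compared to see which cell types the ratios touch; ratio arrays give no level, so the tissue itself could not be checked by abundance. Homeostatic microglia markers had 6 of 12 genes above 0 and a median ratio of -0.18, with Cd53 at 2.13 ± 0.67 (SE) and Siglech at -1.84 ± 0.82 (SE). Plaque-associated microglia genes had 8 of 14 above 0 and a median of 0.82, or -0.47 without centring. In that list Apoe and Fth1, ferritin heavy chain at 2.60 ± 0.88 (SE), were above 0, and both are also abundant in other brain cells. Lyz2, lysozyme of myeloid cells, gave -1.82, -1.84 and -1.85, values within 0.1 log2 units of each other after centring. Microglial genes thus had no common side. Astrocyte markers had 10 of 13 above 0 and a median of 1.59. Sparcl1, a secreted matrix protein, gave 2.02, 1.85 and 3.01 on arrays 1, 2 and 3, and S100b, a calcium-binding protein, 1.74, 2.07 and 7.76, of which array 3 lay far above the others. Myelin and oligodendrocyte genes had 10 of 13 above 0 and a median of 1.32, or 0.03 without centring, when 7 lay above 0. Mbp, myelin basic protein, gave 3.27, 2.53 and 3.41, and Car2, carbonic anhydrase 2, 2.20, 2.69 and 2.64. Endothelium and mural cell markers had a median of 0.06, or -1.17 without centring, with array medians of -1.01, 2.26 and 0.91, so the arrays disagreed.

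Markers of hippocampal neurons were read by subfield. Pyramidal cell markers had 8 of 11 genes above 0 and a median ratio of 1.62. Bok, a Bcl-2 family member, gave 3.77, 3.54 and 3.40 on arrays 1, 2 and 3, and Nptx1, neuronal pentraxin, 2.96 and 3.08 on arrays 1 and 2, while Cpne4, a copine, gave -3.34 and -1.99 on arrays 2 and 3. Granule cell markers had 5 of 11 above 0 and a median of -0.12, with none at an unadjusted p under 0.05. The difference between the subfields was not tested. Interneuron markers had 5 of 8 above 0, with Gad2, a GABA-synthesising enzyme, at 1.86 ± 0.71 (SE). Without centring 3 of the interneuron markers lay above 0, with a median of -0.33. Genes of neuronal structure had 10 of 13 above 0 and a median of 1.48; its member Meg3, an imprinted RNA without a protein product, gave 2.97, 2.93 and 2.96 on arrays 1, 2 and 3. Gap43, a growth cone protein, gave 2.21 and 4.32 on arrays 1 and 2.

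Matrix, sensory and epithelial families closed the range from below. Collagens had 8 of 28 genes above 0 and a median ratio of -0.94, with array medians of -0.72, -0.66 and -0.64. Of them 14 lay below 0 on every array that listed them and 3 above. Col13a1, a membrane collagen, gave -0.61, -3.23 and -3.83 on arrays 1, 2 and 3, and Col5a3, a fibrillar chain, -3.33, -2.62 and -0.72. Col4a1, the basement membrane chain of vessels, went the other way at 1.62 and 3.38 on arrays 1 and 3. Other matrix genes and proteases lay about 0, with a median of 0.04, or -1.14 without centring. Keratins had a median of -0.42 and cytochrome P450 genes -0.46. Olfactory receptors had 126 of 340 tested genes above 0, a median of -0.39 and 17 genes at an unadjusted p under 0.05 below 0 against 4 above. Vomeronasal and taste receptors had a median of -0.31, and testis and sperm genes -0.39. Members of these receptor families share sequence, so a probe's reading of a single gene is uncertain.

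Further lists lay on both sides of the median of all genes. Axon guidance genes had 18 of 43 above 0 and a median of -0.32; Epha3, an ephrin receptor, was at 3.37 ± 0.70 (SE) and Sema3b, a semaphorin, at -4.01 ± 1.27 (SE). Cadherins and protocadherins had a median of -0.19, with Pcdh20 at 2.19 ± 0.64 (SE). Histone and chromatin genes had 31 of 68 above 0, and zinc finger proteins 96 of 172. Sirt2 and Sirt7, deacetylases of the sirtuin family, were at 2.47 ± 0.80 (SE) and 2.91 ± 0.70 (SE). Cell cycle and DNA replication genes had a median of 0.38, apoptosis genes 0.81 and imprinted genes 0.12, which without centring were -0.82, -0.48 and -1.01. Antioxidant and glutathione enzymes had 20 of 36 above 0, with Hmox2, the constitutive haem oxygenase, at 3.03 ± 0.75 (SE). Cholesterol synthesis and export had 11 of 12 above 0 and a median of 0.75, but -0.48 without centring, when 5 lay above 0. It was led by Msmo1, a sterol methyl oxidase, at 4.80 ± 0.94 (SE) from 2 arrays. Zinc transporters and metallothioneins had a median of 0.25, or -0.88 without centring, with Slc39a10, a zinc importer, at 4.67 ± 0.86 (SE) from 2 arrays. In the circadian clock list 5 of 9 genes lay above 0, and Cry2, a repressor of the clock, was at 2.97 ± 0.99 (SE).

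To see whether the genotype ratio at 12 months differed from that at 3 months, both were fitted together for the 6807 probes listed on at least 2 of 3 arrays at each age; no mouse was shared between ages. In limma 0 of 6807 probes passed, the smallest adjusted p being 0.588, and an unadjusted p under 0.05 was found for 391 probes above 0 (5.74%) and 155 below (2.28%). Over 5653 genes with values at both ages, 2036 were above 0 at both and 1314 below at both, while 1401 were above 0 at 12 months but not at 3, and 902 below 0 at 12 months but not at 3. Pearson's r between the ages was 0.301 and Spearman's rank correlation 0.291, across genes. Lists were not alike in this. Complex I had medians of 2.01 at 12 and 0.89 at 3 months, the proteasome 1.98 and 0.96, and cytosolic ribosomal proteins 2.22 and 0.08. Amyloid clearance genes were at 1.98 and -1.002, GABA receptors and synthesis at 1.95 and -0.29, and collagens at -0.94 and -0.60. The medians subtracted from the arrays were -0.87, -0.87 and -1.71 at 12 months and 0.84, -0.84 and 0.97 at 3 months. Distances between the ages therefore depend on the centring. Without it complex I, the proteasome and ribosomal proteins stood at 1.02, 0.88 and 1.09 at 12 months, and 3-month list medians were not computed. The genes behind these medians are partly different at the ages, since fewer were listed at 3 months, and no list is called particular to 12 months.

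**Figure D4:**
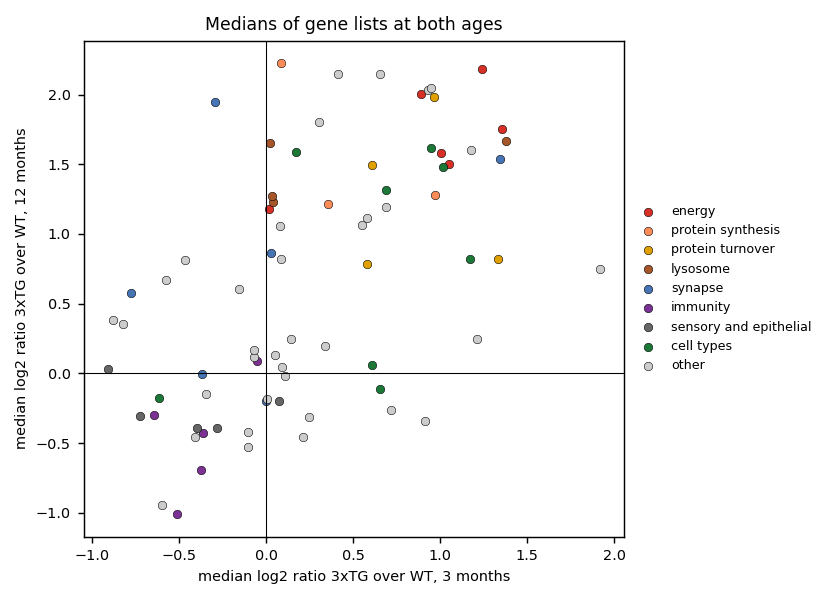
Median log2 ratio of 3xTG over WT at 12 months (y axis) against 3 months (x axis), each relative to the array median, for gene lists with at least 10 tested genes at 12 months and 5 at 3 months, coloured by role. Energy lists lie above 0 at both ages, most immune lists below 0 at both, and GABA receptors and synthesis is at 1.95 on the y axis and -0.29 on the x axis.

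Single probes of smallest p for the difference between ages are named as values. Csnk1g2 gave 3.96, 3.22 and 3.22 on arrays 1, 2 and 3 at 12 months and -4.61 to -2.36 at 3 months, a difference of 6.79 ± 1.07 (SE). The rule took the smallest p with one sign at each age, so the distance between the ages for Csnk1g2 follows from the choice. Mef2c, which the rule for the difference does not name and which was picked after its values were seen, averaged -1.29 at 3 months, a difference of 5.83 ± 1.37 (SE). Chrnb1, a subunit of the muscle acetylcholine receptor, differed by 4.84 ± 1.01 (SE), Scnn1b, of the epithelial sodium channel, by 5.36 ± 1.05 (SE), and Lmna, lamin A, by 5.93 ± 1.24 (SE). Ip6k1, an inositol phosphate kinase, differed by 4.47 ± 0.98 (SE), Gpc1, a heparan sulphate proteoglycan, by 4.90 ± 1.10 (SE), Mgst3, a microsomal glutathione transferase, by 4.83 ± 1.11 (SE) and Dusp18, a phosphatase, by 5.61 ± 1.14 (SE). In the other direction Sbf1, at 1.08 to 1.86 on 2 arrays at 3 months, differed by -6.04 ± 1.09 (SE), and Pik3r1 by -6.63 ± 1.28 (SE). Gnb1, a G protein beta subunit, differed by -6.28 ± 1.36 (SE), Stat5b, a cytokine-responsive factor, by -6.06 ± 1.23 (SE) and Scrib, a polarity protein, by -6.04 ± 1.46 (SE). Foxd3, a neural crest factor, differed by -5.37 ± 1.24 (SE), Galm, a sugar epimerase, by -4.55 ± 1.23 (SE) and Phactr2, which binds phosphatase 1, by -5.08 ± 1.27 (SE). For Galm most of the difference came from 3 months, since its fitted ratio at 12 months was -0.43 ± 0.64 (SE). Mgst3 has a further probe, and averaged over its probes it gave 2.87, 2.64 and 2.40 at 12 months. A WT change with age enters these differences with the opposite sign. In WT mice at 12 over 3 months Csnk1g2 averaged -4.80, Ip6k1 -4.76, Mgst3 -3.59, Gpc1 -3.56 and Dusp18 -3.49. Pik3r1 was at 3.77 there on 1 array. Chrnb1 (2.33), Galm (-0.77) and Phactr2 (-3.47) had the sign of their difference there, and the others named by the rule the opposite sign. These WT values are relative to array medians of 1.415, 2.335 and 1.955. Small negative ones, such as that of Galm, therefore depend on the centring for their sign. The part of the WT mice was not tested.

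The comparison of WT mice at 12 over 3 months drew on the same 12-month WT mice, which there form the numerator and here the denominator, so an unusual level in them enters both with opposite signs. The genes given side by side here were chosen after their values were seen. Mapt was at 2.69 here and averaged -2.37 in WT ageing, Sbf1 -4.57 and 6.46, Mef2c 4.49 and -2.97, and Meg3 2.95 and -4.11. Rpgrip1 was at -5.44 and 4.22. The App probe listed on all 3 arrays was at 2.20 and 0.90, with WT ageing arrays from -0.06 to 1.94, and the other App probe at 1.90 and, on 1 array, -0.17. Ttr was at -3.60 and -1.34. Complex I had list medians of 2.01 and -1.15, and tau kinases and phosphatases 2.03 and -1.42. In WT ageing the medians subtracted from the arrays were 1.415, 2.335 and 1.955, and here -0.87, -0.87 and -1.71. Centring thus lowered every WT ageing value and raised every value here. The negative side of the list medians, and of Ttr, in WT ageing depends on it. How much the shared WT mice contribute to these pairs was not tested.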

How the data were processed

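Hippocampal RNA of single mice was amplified, labelled with Cy3 or Cy5 and hybridised in pairs, per the labels' protocols. The deposited values, 1 per probe and array, are read as log2 ratios of test over reference. What the authors did to scan, correct, normalise and filter them is not given in the sources used here. Spot intensities were not used, so detection and dye bias could not be examined. Gene symbols came from the platform annotation, updated through RefSeq: of 16675 symbols 13905 were current, 2728 were updated by synonym and 42 were kept. Of the probes, 21020 had 1 symbol and 8902 had none and are not named.

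From every array the median of its own listed values was subtracted. Probes, and genes as means of their probes, with values on at least 2 of the 3 arrays were tested against 0 with limma 3.58.1 in R 4.3.3, two-sided, with Benjamini-Hochberg adjustment over all features. Arrays that share a mouse entered with a covariance; the variance between mice was 0.1201 times that between arrays, from 3836 probes. Tables were made with Python 3.11.15, pandas 2.3.3 and numpy 2.4.6. With 4 mice, p-values measure the spread between these arrays. Precision is limited by the number of arrays. The procedure was tested on simulated data, where it called none of the changed probes. Small ratios of either sign are missing from the deposited values, and centring used the listed values only. The simulation is therefore not taken to show that fitted values are unbiased in these data.

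Named were the transgene-related genes; in each direction the 15 probes of smallest p with one sign on all 3 arrays, from all probes and from those sparse in another comparison; genes of smallest p in each list; and 8 probes in each direction for the difference between ages. One further transgene-related gene falls under this rule and is not reported here. Members and lists were chosen with earlier results of these data known. Alternatives were no centring, centring on abundant transcripts, independent arrays, a dye term, scaling to one spread, probes on all 3 arrays, 1 probe per gene, all 9 arrays together, the experiment number as a block, and leaving out each array.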

Additional observations from a re-analysis of the deposited data

Results flagged for a closer look

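At both ages all 3 arrays listed these probes or genes, and the 3 arrays of 12 months had ratios of one sign while the 3 arrays of 3 months had the opposite sign. The value given is the mean log2 ratio of 3xTG over WT at 12 months minus that at 3 months. For single probes it was 6.771 for Csnk1g2 (means 3.47 and -3.31), 4.842 for Chrnb1 (3.11 and -1.73), 4.431 for Ip6k1 (3.17 and -1.26), 4.834 for Gpc1 (2.43 and -2.40), 4.758 for Mgst3 (2.18 and -2.58) and -4.632 for Galm (-0.44 and 4.19). These 6 probes were in the fit of the difference, where each had a limma adjusted p of 0.588. They had been named for a small p and one sign at each age, so their opposite sides were largely set by that choice. Their values in WT ageing are given above with the difference between ages. How many of all probes or genes had such signs is not given here. For genes averaged over their probes the value was 2.977 for Dlgap1, a postsynaptic scaffold (2.09 and -0.89), 3.502 for Hras, a small GTPase (2.10 and -1.40), 3.665 for Rps9, a ribosomal protein (2.51 and -1.16), and 6.248 for S100b of astrocytes (3.86 and -2.39). For these 4 genes the difference was not tested at the gene level. Sides are those of centred values, and in the deposited ratios 7 of the 10 kept opposite signs at the ages. Hras did not, at -0.88 on array 3 at 12 months, nor did Dlgap1, at 0.82 on array 1 at 3 months, nor Rps9, at 0.22 on array 3 at 3 months.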

How the results depend on the processing

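In every alternative run, limma called 0 probes and 0 genes at an adjusted p under 0.05; the design also made no calls when tested on simulated data. Counts at an unadjusted p under 0.05 moved with the centring. Without centring 343 probes lay above 0 and 1760 below (genes 238 and 1073, difference between ages 84 and 647), and relative to abundant transcripts 88 and 3031 (genes 69 and 1895). With a dye term there were 854 and 152 probes (657 and 98 genes), for features on all 3 arrays 881 and 157 (698 and 94), and with all 9 arrays 745 and 137; fewer features could be fitted in these settings. Leaving out 1 array gave 757 to 1039 probes above and 160 to 217 below, 571 to 790 genes above and 100 to 133 below, and for the difference between ages 169 to 315 above and 67 to 108 below, again over fewer features. The experiment number as a replicate block gave 264 and 118 probes for the difference between ages. Same-numbered arrays of the ages had correlations of deviations of 0.07, -0.02 and 0.17 over 637 probes and came from different mice, so they share only a number; array 1 at 12 months correlated best with array 2 at 3 months, at 0.14. Signs of named values turned in few settings, and the cause was not tested. Relative to abundant transcripts, values were -0.10 for the App probe listed on 2 arrays, -0.37 for Apaf1, -0.41 for Arntl, -0.25 for Atp1b1, -0.50 for Atp5b, -0.16 for Atp5c1, -0.24 for Atp5mpl, -0.45 for C1ql3, -0.049 for Cacna1d, -0.30 for Casp9, -0.15 for Cck, -0.56 for Dsp, -0.28 for Fdps, -0.56 for Jun, -0.58 for Klf10, -0.091 for Krtap3-1, -0.05 for Man2b1, -0.25 for Nxph1, -0.028 for Prss57, -1.31 for Scn8a, -0.80 for Tmem72 and -0.80 for Tubb2a. Without centring they were -0.21 for Atp5b, -0.006 for Dsp, -0.27 for Jun, -1.02 for Scn8a, -0.25 for Tmem72 and -0.25 for Tubb2a. With 1 probe per gene Apaf1 stood at -0.33 and Igfbp5 at 0.04. Leaving out 1 array gave -0.477 to 0.143 for Grm8, positive without array 1 or array 3, and -1.138 to 0.261 for Scn4a, positive without array 1.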
